A study of Homo sapiens with 6 samples.

Results

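The interferon regulatory factors (IRFs) are a family of transcription factors, and 8 of their genes, IRF1, IRF2, IRF3, IRF4, IRF5, IRF7, IRF8 and IRF9, were picked out by symbol among 60708 genes in a table of raw read counts. RNA was sequenced from Caki-1 cells, a line from a human clear cell kidney carcinoma with an intact VHL gene. The 3 VC samples had the WT genotype and carried the lentiviral CRISPR vector alone, and the 3 VHL-KO samples carried the same kind of vector with a guide RNA (sgRNA) against VHL. The knockout cells were grown from clones after puromycin selection, so an effect of a clone and an effect of the lost gene cannot be told apart. The number of clones behind the 3 samples, and which of the listed VHL guides they carried, are not given in the sources used here. Whether the VC cells were cloned is not given either. Nothing in the labels says that the 3 samples of a group were separate cultures, so p-values measure only the spread between these samples, which may be technical. Of the 8 members, 6 had at least 10 reads in any sample and were tested, among 17401 genes tested in all.

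IRF proteins share an N-terminal DNA-binding domain that recognises the interferon-stimulated response element (ISRE), a motif built on repeats of GAAA. IRF3 and IRF7 are switched on by phosphorylation after a cell senses foreign or misplaced nucleic acid and then drive interferon genes, whereas IRF9 joins STAT2 in a complex that carries the signal from the interferon receptor to the nucleus. IRF1 and IRF2 bind the same sites as activator and mainly repressor, and IRF4 and IRF8 act chiefly in blood cells. VHL, the gene edited here, encodes the part of a ubiquitin ligase that marks HIF alpha proteins for destruction, and it is lost in most clear cell kidney tumours.

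Promoter windows from RefSeq on GRCh38.p14, each 300 bases long with 250 before and 50 after an annotated start site, were matched for 5 of the 8 members and gave 9 windows. IRF2, IRF3 and IRF7 had no entry in the set of windows used here. The windows were searched on both strands for the ISRE core GAAANNGAA, which was in 8.11% of all 35116 windows, and for the gamma-activated site (GAS) TTCNNNGAA, a motif of genes that respond to interferon gamma, which was in 7.66%. The ISRE core was in 1 of the 9 windows and the GAS letters were in 2, and no window held both motifs. The 3 windows with a match are printed 5′ to 3′ on the strand of the gene with the match in capitals, because IRF1, IRF5 and IRF9 are members whose counts differed between the groups. The IRF1 window lies on the minus strand at chr5:132490724-132491023 and its GAS letters begin at position -124 from the start site. The IRF9 window lies on the plus strand at chr14:24161015-24161314 with GAS letters from position -63. The IRF5 window, the last of its 4 along the chromosome, lies on the plus strand at chr7:128941018-128941317, and its capitals, from position -4, are the ISRE core read on the opposite strand. A match describes letters, and binding was not measured.
IRF1: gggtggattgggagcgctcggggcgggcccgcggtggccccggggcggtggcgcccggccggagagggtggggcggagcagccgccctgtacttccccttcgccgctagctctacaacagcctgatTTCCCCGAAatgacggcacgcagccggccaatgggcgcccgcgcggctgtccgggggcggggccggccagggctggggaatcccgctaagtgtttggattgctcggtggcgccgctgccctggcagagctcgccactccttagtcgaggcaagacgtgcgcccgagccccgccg
IRF9: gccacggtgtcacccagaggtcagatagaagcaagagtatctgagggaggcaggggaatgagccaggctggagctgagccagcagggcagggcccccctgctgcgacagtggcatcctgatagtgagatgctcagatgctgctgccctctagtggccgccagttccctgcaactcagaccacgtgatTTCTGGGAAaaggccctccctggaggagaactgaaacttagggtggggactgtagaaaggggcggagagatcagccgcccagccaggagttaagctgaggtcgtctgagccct
IRF5: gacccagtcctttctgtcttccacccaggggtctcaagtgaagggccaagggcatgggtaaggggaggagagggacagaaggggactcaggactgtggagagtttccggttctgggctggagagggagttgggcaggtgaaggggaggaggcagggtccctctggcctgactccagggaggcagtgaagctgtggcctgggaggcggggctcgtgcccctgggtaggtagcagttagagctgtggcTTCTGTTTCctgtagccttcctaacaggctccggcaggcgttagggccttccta

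VHL itself (ENSG00000134086.8, chr3:10141778-10153667, plus strand of GRCh38) had 42.6, 37.8 and 40.1 CPM (counts scaled to a common library size, with correction by trimmed mean of M values, TMM, factors) in VC samples 1 to 3 and 34.8, 30.4 and 30.5 in VHL-KO samples 1 to 3. Every VHL-KO sample lay below every VC sample, but the transcript was still present. Its log2 fold change was -0.33 ± 0.11 (SE, adjusted p = 0.0109, edgeR quasi-likelihood with Benjamini-Hochberg correction), against a threshold of 0.05. The call was lost in 4 of 15 alternative settings. These were -0.28 without VC 1 (adjusted p = 0.0862 in the same edgeR fit), -0.30 without VHL-KO 2 (adjusted p = 0.0621), -0.22 with upper quartile factors and -0.18 with offsets for GC content and length, within 0.000293 to 0.0905 over the alternatives. Of the VHL reference transcript, 26.6% lies in exons of a gene on the opposite strand. CA9, which HIF induces, was nearly absent from VC cells, with 0, 0 and 2 counts, and reached 288, 247 and 233 counts in VHL-KO samples 1 to 3.

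VC samples 1 to 3 totalled 31789923, 28463579 and 34881739 reads on genes, and VHL-KO samples 1 to 3 totalled 29139722, 22805385 and 22628246. Across the family, IRF7, IRF5 and IRF9 were higher in VHL-KO cells and IRF1 and IRF2 were lower. IRF3, the most abundant member per length with IRF9 left unranked, did not pass the threshold. It turned from 0.16 to -0.028 on the log2 scale with library size alone. The other 5 kept their direction under each scaling tried. That is 5 of 6 tested members called, beside 59.7% of all tested genes, with 3 higher beside 28.5% and 2 lower beside 31.2%. IRF2 kept its call in 4 of 15 alternatives, and the number lower was 1 without VC 1, VC 3 or any VHL-KO sample. With offsets for GC content and length the 2 lower were IRF1 and IRF3. The number higher was 4 with upper quartile factors or without VC 2, where IRF3 joined. It was 2 with 10 reads required in every sample, which left IRF9 untested. The groups of samples did not overlap for the 5 members called with TMM factors and all 6 samples, beside 64.7% of all tested genes. The median log2 fold change of the 6 tested members was 0.55, beside -0.01 for all tested genes. With shares this high over all genes, neither count sets the family apart, and the results lie in the size and direction of each member. The balance of all calls moved with the scaling too, from 47.7% of called genes higher with TMM factors to 35.8% with library size alone, where the median log2 fold change was -0.20, and to 55% with upper quartile factors, where it was 0.10. In RNA from bulk cells, fewer cells that use a gene and less RNA per cell cannot be told apart.

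**Figure D1:**
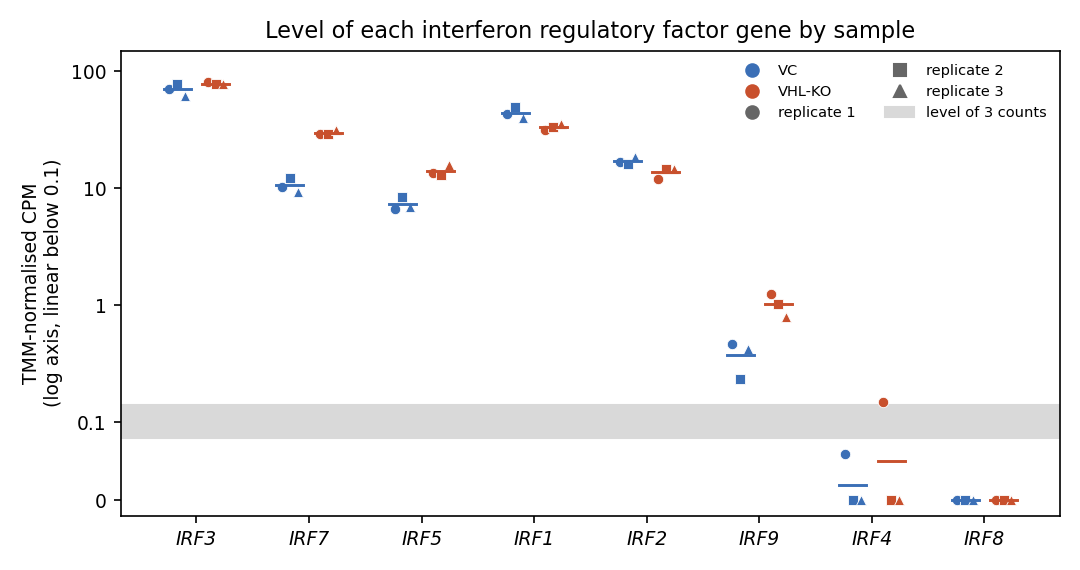
Level of the 8 members in each sample, as TMM-normalised CPM on a log axis that is linear below 0.1, with VC samples in blue, VHL-KO samples in orange, a symbol for each replicate number and a bar at the group mean. The grey band spans the level of 3 counts, from 0.079 to 0.141 CPM, and the VHL-KO samples of IRF7 sit between 28.9 and 31.3 CPM, above all VC samples.

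IRF3 (ENSG00000126456.16, chr19:49659569-49665875, minus strand) is the factor that is made at all times and waits in the cytoplasm until TBK1 phosphorylates it. It had 70.9, 78 and 62 CPM in VC samples 1 to 3 and 80.7, 78 and 77.3 CPM in VHL-KO samples 1 to 3. The VHL-KO samples were close together, VC 3 was the low sample, and VC 2 lay inside the VHL-KO range, so the groups overlapped. The log2 fold change of IRF3 was 0.16 ± 0.099 (SE, adjusted p = 0.162, edgeR quasi-likelihood with Benjamini-Hochberg correction). It was 0.27 with upper quartile factors (adjusted p = 0.0259 in the same edgeR fit), 0.26 without VC 2 (adjusted p = 0.0113) and -0.18 with offsets for GC content and length (adjusted p = 0.0182), within 0.0113 to 0.806 over 15 alternatives. Thus these data give IRF3 mRNA no settled direction. Of the bases in its MANE Select transcript, the agreed reference transcript, 14.2% lie in exons of BCL2L12 on the opposite strand. BCL2L12 fell, with a log2 fold change of -0.98 ± 0.12 (SE, adjusted p = 9.6e-08, edgeR quasi-likelihood with Benjamini-Hochberg correction), and was looked up after the values were seen. The strand setting of the counting is not given in the sources used here, so reads in the shared stretch cannot be told apart.

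IRF7 (ENSG00000185507.21, chr11:612553-615983, minus strand), itself switched on by interferon in many cells and the main driver of interferon alpha genes, had the largest rise with TMM factors and all 6 samples, though IRF9 stood above it with the offsets described with GC content and without VC 1, VC 3 or VHL-KO 3. It had 349, 363 and 355 counts in VC samples 1 to 3 and 771, 627 and 668 counts in VHL-KO samples 1 to 3, although the VHL-KO libraries were smaller than VC 1 and VC 3. In CPM these were 10.2, 12.2 and 9.35 in VC and 28.9, 29.1 and 31.3 in VHL-KO cells. The gap between the groups was much wider than the spread within either, and no sample lay between them. The mean went from 10.6 ± 1.47 to 29.8 ± 1.37 CPM (SD, n = 3 each), 2.81-fold. The log2 fold change was 1.49 ± 0.13 (SE, adjusted p = 6.19e-10, edgeR quasi-likelihood with Benjamini-Hochberg correction), and it was 0.85 with offsets for GC content and length. No other annotated exon shares bases with IRF7. Within each sample the ratio of IRF7 to IRF3 counts, formed after the values were seen and free of any scaling between libraries, was 0.144, 0.157 and 0.151 in VC and 0.357, 0.373 and 0.405 in VHL-KO cells. The ratio was 2.51-fold higher in VHL-KO cells, with no overlap. It is not free of a trend with GC content, which was 66.8% for IRF7 and 59% for IRF3.

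IRF5 (ENSG00000128604.20, chr7:128937457-128950038, plus strand) relays signals from Toll-like receptors through MYD88 and is best known in myeloid cells. It had 6.71, 8.35 and 6.98 CPM in VC samples 1 to 3 and 13.5, 12.9 and 15.8 CPM in VHL-KO samples 1 to 3. The lowest VHL-KO sample was well above the highest VC sample. The mean rose from 7.34 ± 0.879 to 14.1 ± 1.5 CPM (SD, n = 3 each), and the log2 fold change was 0.94 ± 0.15 (SE, adjusted p = 1.1e-05, edgeR quasi-likelihood with Benjamini-Hochberg correction). Its range over the 15 alternatives was 0.75 to 1.05, and the call held in each of them.

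IRF1 (ENSG00000125347.15, chr5:132440440-132508719, minus strand), an activator of antigen-presentation and antiviral genes that interferon gamma induces, went the other way. It had 42.8, 49.7 and 40.2 CPM in VC samples 1 to 3 and 31.2, 33.7 and 35.7 CPM in VHL-KO samples 1 to 3. VC 2 was the highest of the 6 samples and VHL-KO 1 the lowest, and the groups did not overlap. The mean went from 44.2 ± 4.92 to 33.5 ± 2.26 CPM (SD, n = 3 each) and the log2 fold change was -0.40 ± 0.11 (SE, adjusted p = 0.00329, edgeR quasi-likelihood with Benjamini-Hochberg correction). The fall passed the threshold in all 15 alternatives, between -0.59 and -0.29. Of its reference transcript, 16.3% lies in exons of IRF1-AS1 and a further gene on the opposite strand. IRF1-AS1, looked up after the values were seen, was at 0.21 ± 0.24 (SE, adjusted p = 0.47 in the same edgeR fit).

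IRF2 (ENSG00000168310.11, chr4:184385702-184474558, minus strand), which competes with IRF1 for its sites, had 16.8, 16 and 18.5 CPM in VC samples 1 to 3 and 12, 14.7 and 14.6 CPM in VHL-KO samples 1 to 3. The groups did not overlap, though VC 2 and VHL-KO 2 were close. The log2 fold change was -0.32 ± 0.14 (SE, adjusted p = 0.0488, edgeR quasi-likelihood with Benjamini-Hochberg correction). This was just under the threshold, and the call was kept in 4 of the 15 alternatives, with adjusted p between 0.00429 and 0.246. The lowest of these came with library size alone, where the log2 fold change was -0.51. The call was lost without any of VC 1, VC 3 and the VHL-KO samples, at -0.36 to -0.21. It was also lost with offsets for GC content and length at -0.18, so the fall of IRF2 is a weak call. The ratio of IRF1 to IRF2 counts, also formed after the values were seen, was 2.55, 3.11 and 2.17 in VC and 2.6, 2.29 and 2.44 in VHL-KO cells. These ranges overlapped, so a shift in the balance of the activator and its competitor was not detectable.

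**Figure D2:**
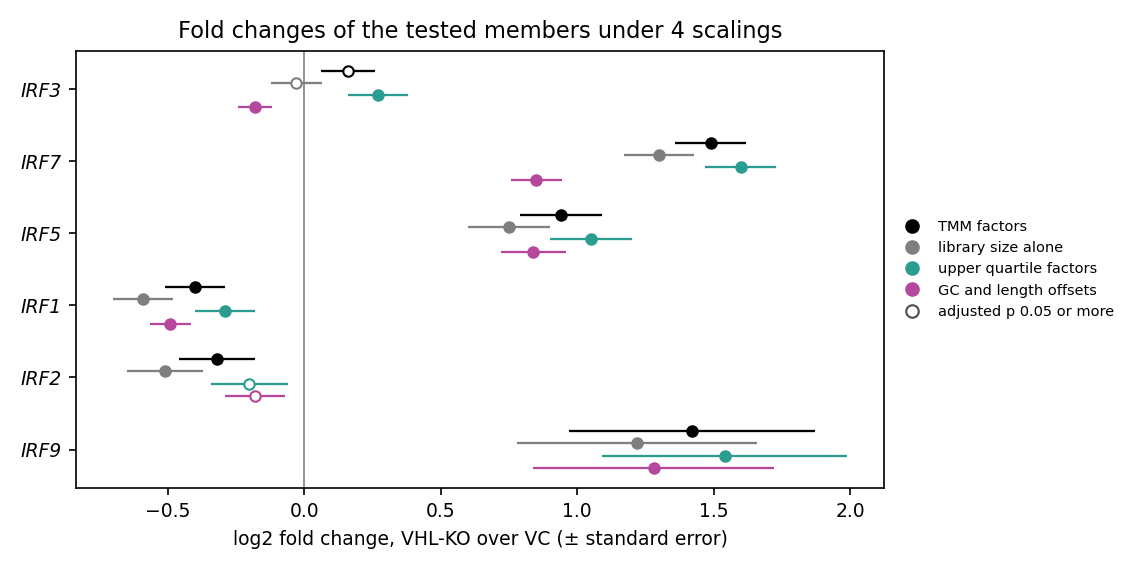
Log2 fold change of the 6 tested members, VHL-KO over VC, with bars of 1 standard error, under TMM factors, library size alone, upper quartile factors and offsets for GC content and length. Open points have an adjusted p of 0.05 or more, and IRF3 changes sign, at 0.16 with TMM factors and -0.18 with the offsets, and at -0.028 with library size alone, while IRF7, IRF5 and IRF9 stay above 0 and IRF1 and IRF2 below it.

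IRF9 (ENSG00000213928.9, chr14:24161234-24168043, plus strand) supplies the main DNA-binding part of the complex it forms with STAT2. Its reads were few, 16, 7 and 16 in VC samples 1 to 3 and 33, 22 and 17 in VHL-KO samples 1 to 3. In CPM these were 0.469, 0.236 and 0.421 in VC and 1.24, 1.02 and 0.797 in VHL-KO cells, with VC 2 the lowest and no overlap. The log2 fold change was 1.42 ± 0.45 (SE, adjusted p = 0.00824, edgeR quasi-likelihood with Benjamini-Hochberg correction). The counts are an uncertain measure of the gene. Of the 1626 bases of its MANE Select transcript, 308 (18.9%) lie in exons of ENSG00000289757 on the opposite strand. A larger part, 1513 bases (93.1%), also lies in exons of ENSG00000259529, a gene on the same strand. That gene itself received 3, 1 and 5 reads in VC samples and 4, 0 and 3 in VHL-KO samples. A counter may leave out reads that fall on both genes, and the setting used is not given in the sources used here. RNF31, the next gene, was as low, at 8, 8 and 4 reads in VC samples and 7, 17 and 12 in VHL-KO samples. The log2 fold change of RNF31 was 1.39 (adjusted p = 0.0688 in the same edgeR fit), and its groups overlapped. IRF9 is therefore given no place in the order of levels. ENSG00000259529 and RNF31 were looked up after the values were seen.

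IRF4 and IRF8, the members of the lymphoid and myeloid lineages, were at or near 0. IRF4 (ENSG00000137265.15, chr6:391739-411443, plus strand) received 2, 0 and 0 reads in VC samples and 4, 0 and 0 in VHL-KO samples. IRF8 (ENSG00000140968.11, chr16:85899116-85922606, plus strand) had 0 counts in all 6 samples, which allows up to 3 counts, between 0.079 and 0.141 CPM by sample (counting error only). Of 12 leukocyte markers, 3 were tested, with 1 higher and 1 lower, beside 28.5% and 31.2% of all genes. Their median log2 fold change of -0.70, beside -0.01 for all genes, rests on 3 genes. It was -0.074 without VC 2, -0.15 without VHL-KO 3 and -1.32 without VHL-KO 1, and it turned positive with 10 reads required in every sample, so it gives the list no settled size. CD3E, MS4A1 and TYROBP were at 0 in every sample and PTPRC never exceeded 1 count. Their summed level was 2.61, 3.47 and 2.13 CPM in VC and 4.9, 6.07 and 4.22 CPM in VHL-KO cells, with CD14 the most abundant, which rose with a log2 fold change of 1.47, or 0.88 at its lowest, with offsets for GC content and length and a replicate block. CSF1R, with 18, 27 and 20 reads against 0, 6 and 5, fell by 1.97 on the log2 scale. Its call was lost without VC 2 (-1.65, adjusted p = 0.0799, edgeR quasi-likelihood with Benjamini-Hochberg correction) or without VHL-KO 1 (-1.32, adjusted p = 0.0759), within 0.00378 to 0.0799 over its alternatives.

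Most of the genes listed as markers of kidney epithelium were present, though as a list they do not settle the label of the line. Of 12, CA9 among them, 11 were tested, 6 were higher and 2 lower, beside 28.5% and 31.2% of all genes. With library size alone 4 were higher and 4 lower. Their median log2 fold change of 0.37, which was 0.18 with library size alone, is that of KRT18, and without CA9 on the list it would lie midway between KRT18 and CDH6, which was at -0.026. Their summed level was 7932, 8872 and 7700 CPM in VC and 8754, 8190 and 8529 CPM in VHL-KO cells, mostly VIM. PAX8 was at 428 ± 38.9 CPM in VC and 614 ± 14.2 CPM in VHL-KO cells (SD, n = 3 each), 0.52 in log2 fold change, or 0.25 with the offsets for GC content and length. PAX2 had no count in any sample. CDH16 rose with a log2 fold change of 3.42 and LHX1 and EPCAM fell by 1.67 and 1.42. KRT19 was called higher at 0.96 (adjusted p = 0.0488 in the edgeR quasi-likelihood fit after Benjamini-Hochberg correction) and kept the call in 4 of 15 alternatives. With the offsets it fell to 0.36 (adjusted p = 0.458), and with library size alone to 0.76. The call was also lost without any of the VC samples, VHL-KO 1 or VHL-KO 3, where it stayed at 0.83 or above, with adjusted p from 0.0114 to 0.487 over its alternatives (edgeR quasi-likelihood and DESeq2). What part a difference in cell state has in the IRF results was not tested.

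Levels of different genes were compared as CPM per kilobase of exon, counting every annotated exonic base. In VC cells IRF3 stood at 18.5 ± 2.12, IRF7 at 4.06 ± 0.563, IRF1 at 3.61 ± 0.401, IRF2 at 2.54 ± 0.195 and IRF5 at 1.03 ± 0.124 CPM per kilobase (SD, n = 3 each). IRF7 and IRF1 were neighbours whose samples overlapped, from 3.58 to 4.68 and from 3.28 to 4.05. In VHL-KO cells IRF3 stood at 20.7 ± 0.481, IRF7 at 11.4 ± 0.525, IRF1 at 2.73 ± 0.184, IRF2 at 2.05 ± 0.23 and IRF5 at 1.98 ± 0.211. IRF7 there stood clear of the members on either side of it, while IRF2 and IRF5 overlapped. The place of IRF7 in VC cells depended on the length used, since with the MANE Select transcript, a length chosen after seeing the data, IRF1 was at 12.4 and IRF2 at 7.57, both above IRF7 at 5.51 CPM per kilobase. In VHL-KO cells IRF7 was second to IRF3 with every length tried, again with IRF9 left unranked.

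As a share of the summed level of the 8 members in the same sample, IRF7 made up 13.2%, 14.2% and 13.3% in VC samples 1 to 3 and 28.5%, 28.8% and 30.1% in VHL-KO samples 1 to 3. The share was higher in each VHL-KO sample than in any VC sample. The mean share of IRF7 went from 13.6% ± 0.568 to 29.2% ± 0.868 (SD, n = 3 each, two-sided exact permutation p = 0.1, the smallest that 3 against 3 samples can give). IRF3 went from 62.1% ± 1.38 to 53.1% ± 1.86 and IRF1 from 12.1% ± 0.28 to 7% ± 0.392, with the same exact permutation p of 0.1 (n = 3 each). IRF2 went from 8.62% ± 1.5 to 5.24% ± 0.568 and IRF5 from 3.47% ± 0.244 to 5.06% ± 0.453, again without overlap. A larger share of IRF7 lowers the others by construction. With the MANE Select length, an alternative added after seeing the data, the share of IRF3 was 60.8% and 57.5% and its samples overlapped (exact permutation p = 0.2), while that of IRF7 was 7.59% and 18%.

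**Figure D3:**
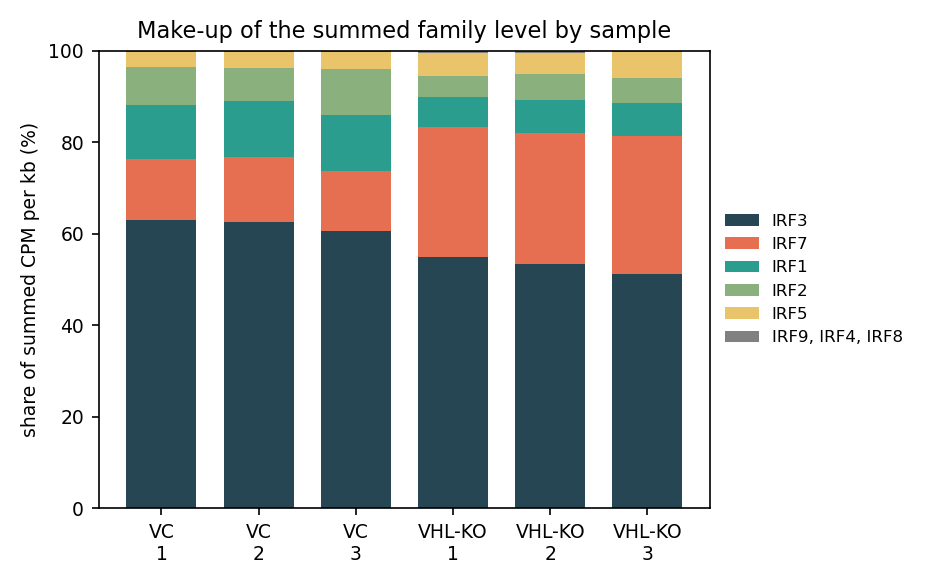
Share of each member in the summed CPM per kilobase of the family in each of the 6 samples, in percent, stacked to 100, with exon length counted over all annotated exons. The IRF7 band takes 13.2% to 14.2% in the VC samples and 28.5% to 30.1% in the VHL-KO samples. IRF3 is the largest band in every sample, with IRF9 drawn from its uncertain counts.

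Fold changes between the groups followed the base composition of transcripts, which bears on the family because its members differ in it. Over 13144 genes with at least 1 CPM on average, Spearman's rho between GC content and log2 fold change was 0.396, a description across genes, which are not independent replicates. IRF7 is the most GC-rich tested member at 66.8%, and the 386 genes within 2 percentage points of it had a median log2 fold change of 0.54, with quartiles of 0.013 and 1.11. The value of IRF7, 1.49, lay above that upper quartile. IRF5, at 52.9% GC, stood beside genes with a median of 0.057 and was at 0.94. IRF1, at 52.6%, stood beside a median of 0.056 with a lower quartile of -0.41 and was at -0.40. IRF3, at 59%, was at 0.16 beside a median of 0.32, and IRF2, at 46.2%, was at -0.32 beside a median of -0.17. With offsets that remove each library's trend with GC content and length, and any biological change that follows it, the log2 fold changes were 0.85 for IRF7, 0.84 for IRF5, 1.28 for IRF9, -0.49 for IRF1, -0.18 for IRF2 and -0.18 for IRF3. IRF7 and IRF5 were then nearly equal in size. The part of GC content in the results was not tested beyond these values.

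**Figure D4:**
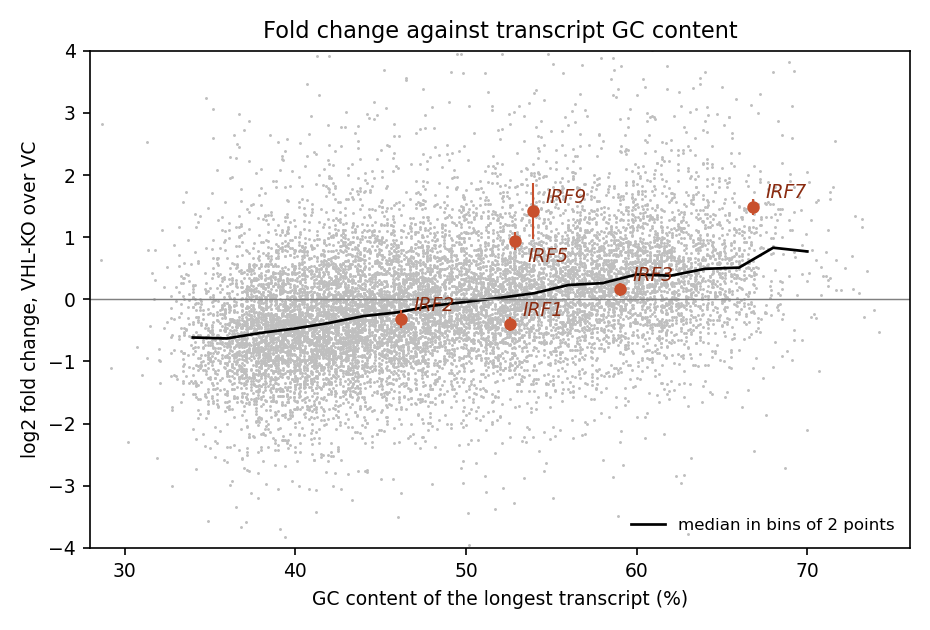
Log2 fold change, VHL-KO over VC, against the GC content of the longest transcript in percent, for genes with at least 1 CPM on average (grey points, axis limited to 4 either way), with the median in bins of 2 percentage points as a line. Members are in orange with bars of 1 standard error, and IRF7 at 66.8% GC and 1.49 lies where the line itself is raised, while IRF5 at 52.9% and 0.94 lies where it is near 0.

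Upstream of the IRF proteins stand the sensors, adaptors and kinases that activate them. Of 20 such genes 19 were tested, and 2 were higher, 10 were lower and 7 were not called, beside 28.5% of all genes higher and 31.2% lower. The number higher was 6 with upper quartile factors or the offsets for GC content and length, 5 without VC 2 and 4 with 10 reads required in every sample. The median log2 fold change was -0.39 beside -0.01 for all genes. It was -0.58 beside -0.20 with library size alone, -0.28 beside 0.10 with upper quartile factors and -0.27 without VC 2. STING1, the adaptor that recruits TBK1, rose with a log2 fold change of 0.97, from 14.1 ± 0.86 to 27.6 ± 2.16 CPM (SD, n = 3 each), and TBKBP1, a TBK1-binding protein, rose with 1.39, or 0.90 with the offsets. CGAS, the DNA sensor that signals to STING1, went from 15.3 ± 0.546 to 4.63 ± 0.442 CPM, a log2 fold change of -1.72. DDX3X, an RNA helicase that assists the kinases, was at -1.47, the kinase gene CHUK at -1.36 and TANK, a scaffold for TBK1, at -1.20. With the offsets CHUK was at -0.85 and TANK at -0.66. The sensor and its adaptor thus moved in opposite directions at the level of mRNA. The IRF3 kinases themselves were not called. TBK1 was at 21.6, 14.5 and 22.3 CPM in VC and 16.8, 16.8 and 17.2 CPM in VHL-KO cells, with VC 2 below all others. Its log2 fold change was -0.21 (adjusted p = 0.231 in the edgeR quasi-likelihood fit after Benjamini-Hochberg correction), and it was past the threshold at -0.36 without VC 2, at -0.40 with library size alone and at 0.31 with offsets for GC content and length. IKBKE was at 0.23 (adjusted p = 0.067 in the same edgeR fit) and at -0.094 with the offsets, and was called higher in 5 of 15 alternatives, among them without VC 2 at 0.35 and without VHL-KO 1 at 0.33. Phosphorylation, on which IRF3 activity depends, is not seen in RNA.

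Cofactors and partners of the IRFs split nearly evenly. Of 22 genes 19 were tested, 9 were higher and 8 lower, beside 28.5% and 31.2% of all genes. The median log2 fold change was 0.13, which was 0.24 with upper quartile factors and turned to -0.098 with the offsets and -0.063 with library size alone. STAT2, the partner of IRF9, had 56.1, 57.4 and 58.9 CPM in VC and 76.3, 82.1 and 89.6 CPM in VHL-KO cells. No sample overlapped, and the log2 fold change was 0.52 ± 0.096 (SE, adjusted p = 4.87e-05, edgeR quasi-likelihood with Benjamini-Hochberg correction), or 0.33 with library size alone. The ubiquitin ligase RBCK1, which marks IRF3 for degradation, rose with 0.84 (0.44 with the offsets) and the corepressor IRF2BP2 with 0.54 (0.35 with library size alone), while its relative IRF2BPL was at -1.35. The acetyltransferase genes KAT2B, EP300 and CREBBP were lower, at -0.94, -0.79 and -0.70, with KAT2B at -0.53 under the offsets. BATF3, a partner of IRF8 in dendritic cells, was at 1.05, on 28, 22 and 34 reads in VC samples and 70, 33 and 19 in VHL-KO samples. Its groups overlapped, and without VHL-KO 1 it was at 0.57 (adjusted p = 0.227 in the same edgeR fit, within 0.00156 to 0.227 over its alternatives).

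The interferon genes that IRF3 and IRF7 act on were almost silent in this table. Of 21 type I and III interferon genes, 17 had no count in any sample, IFNB1 among them, and 3 more had at most 2 counts, so a difference was not detectable at this depth. Only IFNE, an interferon of epithelia, was tested, on 13, 16 and 22 reads in VC samples and 32, 12 and 36 in VHL-KO samples. VHL-KO 2, at 0.556 CPM, lay inside the VC range of 0.381 to 0.58 CPM, so the groups overlapped. The log2 fold change of IFNE was 1.19 ± 0.43 (SE, adjusted p = 0.0209, edgeR quasi-likelihood with Benjamini-Hochberg correction). The call was lost with library size alone and without VC 1, VHL-KO 1 or VHL-KO 3, with log2 fold changes from 0.83 to 1.51 and adjusted p from 0.00291 to 0.138 over 15 alternatives.

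Target genes of the IRFs were mixed. Of 32 on a list of known targets 29 were tested, 13 were higher, 4 lower and 12 not called, beside 28.5% of all genes higher and 31.2% lower. The median log2 fold change was 0.33 beside -0.01 for all genes, and 0.14 beside -0.20 with library size alone. Some of these genes were already known to differ in these samples, so the count is not independent evidence of a direction. HLA-B, which presents peptides to T cells, had 244, 268 and 228 CPM in VC and 1479, 1536 and 1427 CPM in VHL-KO cells. No sample came near the other group, and the log2 fold change was 2.58 ± 0.091 (SE, adjusted p = 4.99e-17, edgeR quasi-likelihood with Benjamini-Hochberg correction). HLA genes resemble each other closely, so reads may be shared or lost among them. HLA-E rose with 1.58, the chemokine gene CCL5 with 2.04 on 6, 14 and 14 reads in VC samples and 30, 33 and 33 in VHL-KO samples, and GBP2, a guanylate-binding protein, with 2.49. Its relative GBP1 went the other way at -1.41, as did CD274, which encodes PD-L1, at -1.97, IL15 at -0.87 and the antiviral gene IFIT1 at -0.83, which was at -0.46 with the offsets. IL15 was at -0.41 with the offsets (adjusted p = 0.0869 in the same edgeR fit, within 0.000278 to 0.0869 over its alternatives). The list thus held large changes in both directions. Its share of called genes, both directions together, was close to that of all genes. Of the called genes 13 were higher and 4 lower, on a list that is not independent of these data.

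**Figure D5:**
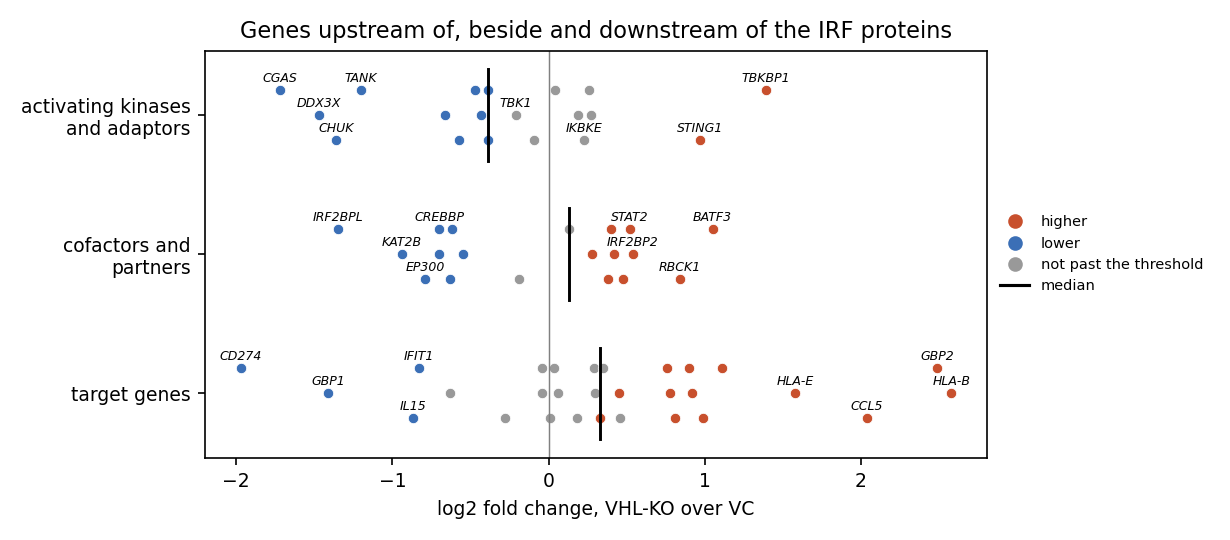
Log2 fold change, VHL-KO over VC, of the tested genes on the lists of activating kinases and adaptors, cofactors and partners, and target genes, with a point for each gene, orange where higher, blue where lower and grey where not past the threshold, and the median of each list as a black line. The medians are -0.39, 0.13 and 0.33 in that order, and -0.58, -0.063 and 0.14 with library size alone. HLA-B and GBP2 stand farthest to the right and CD274 farthest to the left.

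Genes whose pattern over the 6 samples was most like a member's were sought among 8447 genes with at least 10 CPM on average, as the root mean square difference of log2 CPM after centring each gene. For IRF7, the member with the largest rise with TMM factors and all 6 samples, they were GSN (0.03), LTBP4 (0.04) and MIB2 (0.0418), and 74 genes lay within 0.1. For IRF1, with the largest fall in the same fit though not without VC 2, they were GPT2 (0.017), CCAR2 (0.023) and GMPPB (0.0261), and 360 genes lay within 0.1. The log2 fold changes were 1.44 for GSN, 1.47 for LTBP4 and 1.46 for MIB2, and -0.39 for GPT2, -0.42 for CCAR2 and -0.44 for GMPPB, values that the choice by likeness fixes near those of the member.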

How the data were processed

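The authors deposited raw read counts per gene for the 6 samples. Per the study's methods, reads were trimmed with TrimGalore and Cutadapt, kept at 20 nt or longer, aligned with STAR to GRCh38.p13, limited to unique positions with SAMtools and counted with HTSeq. The annotation release, strand and overlap settings are not given in the sources used here. Groups follow the sample labels. From the counts, VHL-KO was compared with VC in edgeR 4.0.16 (R 4.3.3) with TMM factors and the two-sided quasi-likelihood F test, keeping genes that reached 10 reads in any sample, with Benjamini-Hochberg adjustment over all tested genes and a threshold of 0.05. DESeq2 1.42.0, other scalings and filters, samples left out in turn, a replicate block and offsets for GC content and length (splines with 5 degrees of freedom) were the alternatives. The fit was tested on simulated data. Exons came from GENCODE release 44. Lists named their 4 largest called changes in each direction, with STAT2, TBK1, IKBKE and IFNB1 in any case; a further gene of this rule is not reported here. The members and lists were chosen with earlier results of these data known. Replicates differed by more than sampling noise (chi-square per degree of freedom 6.03 to 31.9).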

Additional observations from a re-analysis of the deposited data

How the results depend on the processing

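IRF1, IRF5 and IRF7 kept direction and call in all 15 alternatives and IRF9 in the 14 that tested it; requiring 10 reads in every sample left IRF9 untested. Of 31 called genes named from the lists, 26 kept their call under every alternative that tested them and 5 lost it under some (BATF3, IFNE, IL15, CSF1R and KRT19).

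IRF2 stayed negative but missed the threshold at -0.29 with DESeq2, -0.29 with relative log expression factors, -0.20 with upper quartile factors, -0.28 where every sample needed 10 reads, and -0.18 under offsets for GC content and length, alone or with the replicate block. Leaving out samples in turn gave it -0.36 to -0.21. Members called lower numbered 1 with DESeq2, relative log expression factors, upper quartile factors and 10 reads in every sample, and 1 to 2 without each sample. IRF3 was 0.27 with upper quartile factors, -0.028 with library size alone, -0.18 with the offsets, -0.18 with offsets and replicate block, and 0.096 to 0.26 without each sample. With the offsets TBK1 was 0.31 and IKBKE -0.094, and with the replicate block added 0.31 and -0.098. The cause of these shifts was not tested.

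Same-numbered samples correlated at 0.123, -0.064 and 0.0572, and not every sample correlated best with its own number. The labels do not say that a number marks a shared culture, and correlations this small cannot decide it. With the replicate block 4847 genes were higher and 5437 lower, IRF1 was at -0.40 and IRF5 at 0.94, no member's call changed, and KRT19 alone among the named list genes lost its call.

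With the longest transcript as length, levels in VC and VHL-KO were 8.58 and 6.51 CPM per kilobase for IRF1, 3.79 and 3.05 for IRF2, 24.5 and 27.4 for IRF3, 1.4 and 2.67 for IRF5, 5.17 and 14.5 for IRF7, and 0.0815 and 0.221 for IRF9. With the MANE Select length, added after seeing the data, they were 12.4 and 9.43, 7.57 and 6.1, 44.1 and 49.3, 2.53 and 4.85, 5.51 and 15.5, and 0.231 and 0.626 in the same order. The levels of IRF9 rest on its uncertain counts. With library size alone IRF3 and IRF7 in VHL-KO were 19.4 and 10.7. Shares, whose alternatives were also added then, were with the longest transcript 19.7% and 12% for IRF1, 56.2% and 50.4% for IRF3, 3.21% in VC for IRF5, and 11.9% and 26.7% for IRF7. With the MANE Select length they were 17.2% and 11% for IRF1, 10.6% and 7.11% for IRF2, 57.5% in VHL-KO for IRF3, 5.64% in VHL-KO for IRF5, and 7.59% and 18% for IRF7. Other motif letters changed the matches, with AAANNGAAA (10.5% of all windows) in 2 of the 9, which are overlapping IRF8 windows that share 1 match, and TTCCNGGAA (1.15%) in 0. Of the lists' counts and medians under the alternatives, 224 stayed within 1.5-fold (counts) or 0.1 in log2 fold change (medians) of the values given and 46 moved further. The planned identity between member proteins was not run.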
